A study of Mus musculus with 10 samples.

Results

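Gallbladders of ICR mouse embryos with 1 altered copy of Sox17 (Sox17+/-) were set against wild type ICR gallbladders at 15 days post coitum, 2 biological replicates of each genotype, 4 of the 10 arrays of the series. The arrays were chosen by strain, tissue and genotype in the labels, and the comparison was fitted on these 4 alone. ICR is an outbred stock, so its embryos differ from one another in genetic background. The other 6 arrays hold wild type cystic duct of ICR and the same 2 genotypes of gallbladder in the inbred strain C57BL/6 (B6), at the same stage. The 4 B6 gallbladder arrays share no sample with the ICR comparison and are used beside it. The labels do not describe the altered Sox17 allele, the sex of the embryos, or how many gallbladders went into a sample, so p-values measure the spread between these samples only. The question was which genes differ between the genotypes in both replicates, and how much each array decides.

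Sox17 encodes a transcription factor of the SOX family that is needed to form the gallbladder and cystic duct from the foregut endoderm. Epithelia of the gut and its outgrowths secrete Hedgehog ligands, which bind Ptch1 on the surrounding mesenchyme, release Smo and switch on Gli-dependent genes, among them Gli1, Ptch1 and Hhip. The wall of the fetal gallbladder holds this epithelium and a mesenchyme that gives rise to smooth muscle, and it lies against the liver.

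Each array read 45101 probe sets (sets of short probes that together report a transcript), and 14606 genes were bright enough to be tested. Levels are log2 signals, so a difference of 1 is a doubling of signal, and levels of different genes are not compared. Both epithelium and muscle were present in all 4 arrays: Epcam, an epithelial adhesion molecule, read 11.91 and 11.90 in wild type and 11.52 and 12.19 in Sox17+/-, and Acta2, smooth muscle actin, read 13.96, 14.17, 13.68 and 13.81 in the same order. Alb, the albumin gene of hepatocytes, was also bright, at 13.79 and 12.84 in wild type and 14.31 and 13.98 in Sox17+/-. Xist, an X-linked transcript of female cells, read 11.70 to 12.40, and the Y-linked Eif2s3y read 7.81 to 8.34. The 4 tested sex-linked genes had a mean level of 8.81 and 8.84 in wild type and 8.28 and 8.83 in Sox17+/-. Sox17+/- array 1 was thus the lowest, but this mean joins Xist with Y-linked genes and does not measure the mix of sexes. Xist and Eif2s3y were both above the filter level of 4.49 in all 4 arrays, and the mix of sexes was not tested. In these bulk samples, fewer cells of a type and less RNA per cell cannot be told apart.

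The 4 arrays did not stand equally close to one another, and this bears on every count that follows. Wild type array 1 lay more than 1 log2 unit below all 3 other arrays in 441 genes, 3.02% of those tested, and above them in 0. The same count for wild type array 2 was 35 below and 8 above, for Sox17+/- array 1 it was 12 below and 24 above, and for Sox17+/- array 2 it was 1 below and 5 above. The genes in which wild type array 1 was farthest below are Tlk1, a chromatin kinase, at 4.78 against 9.69 to 9.90, the mitotic checkpoint kinase gene Bub1 at 3.73 against 8.49 to 9.53, Crot at 4.45 against 9.02 to 9.87, and then Upf2, Hpf1 and Chfr. Of these 441 genes, 230 had another probe set bright enough to be tested, 397 probe sets in all, and only 27 of those (6.80%) were also more than 1 below. The correlation across genes, which are not independent replicates, was 0.967 between the wild type arrays, with 582 genes over 1 apart, and 0.986 between the Sox17+/- arrays, with 133.

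**Figure D1:**
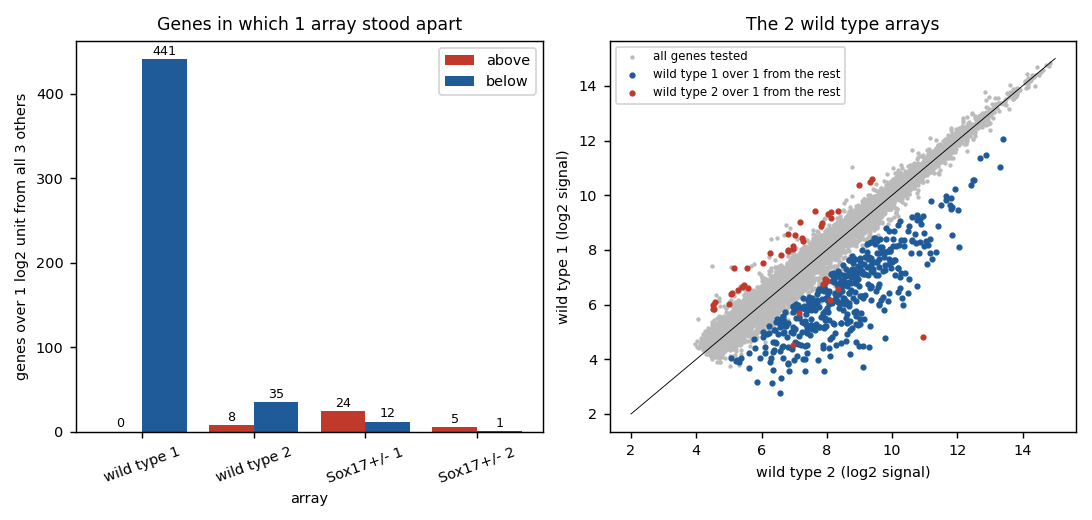
Left, the number of tested genes in which each ICR gallbladder array lay more than 1 log2 unit above or below all 3 others. Right, the log2 signal of each tested gene in wild type array 1 against wild type array 2 with the line of equality: the 441 genes low in wild type array 1 form a band below it.

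The other 3 arrays stood apart in fewer genes. In wild type array 2, genes of heart and slow muscle were high. Myl2, a ventricular myosin light chain, read 10.95 there and 4.76 to 5.33 in the other 3 arrays, Myh7, the slow myosin heavy chain, read 6.96 against 4.51 to 4.77, and Pln, the phospholamban gene, read 8.35 against 5.29 to 6.55. In 8 of 15 erythroid genes the same array lay more than 1 below all others, with Klf1, an erythroid transcription factor, at 7.19 against 8.69 to 9.80. Sox17+/- array 1 was high in S100a9, a neutrophil calcium-binding protein gene, at 11.83 against 8.32 to 9.13, and in Igfbp1, a secreted liver protein gene, at 10.45 against 6.95 to 8.51. Sox17+/- array 2 was higher in Synm, an intermediate filament gene, at 5.72 against 4.46 to 4.55, and in the protease gene Tmprss4, at 7.73 against 6.11 to 6.64. The 3′ minus 5′ signal of the control probe sets, a measure of RNA quality, was 0.43 to 0.93 for Gapdh and 0.56 to 1.40 for actin, both highest in wild type array 2.

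Cited1 and Shh fell in Sox17+/- gallbladder, to 10.3% and 10.6% of the wild type signal, and no gene rose by the same test. Cited1, a transcriptional co-regulator that binds CBP/p300, read 10.89 and 11.01 in wild type and 7.58 and 7.75 in Sox17+/-. The difference was -3.28 (SE 0.14), with a limma adjusted p of 0.0118. Shh, the Sonic hedgehog ligand, read 11.79 and 11.78 in wild type and 8.44 and 8.64 in Sox17+/-, a difference of -3.24 (SE 0.13), with the same limma adjusted p of 0.0118. In both genes the nearest arrays of the 2 genotypes were 3.13 log2 units apart. The related genes Cited2 and Cited4 differed by 0.31 and 0.58. A second, much dimmer Shh probe set read 4.63 and 4.09 in wild type and 3.52 and 3.72 in Sox17+/-, a difference of -0.74. These 2 genes are 0.0137% of all tested genes, and 1011 genes (6.92%) had an unadjusted p under 0.05, 495 higher (3.39%) and 516 lower (3.53%).

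How many genes passed depended on the scaling and on single arrays, while the differences of Cited1 and Shh stayed below -3 under all alternatives except Shh with its probe sets averaged (-1.99). With the values left as deposited, 438 genes passed, 313 higher and 125 lower, against 0 higher and 2 lower after quantile normalization, and 0 passed when each array was only centred on its median (773 at an unadjusted p under 0.05). As deposited, the median difference of all tested genes was -0.17 in place of -0.02, and limma's total degrees of freedom were 272 in place of 5.20. Without wild type array 1, 34 genes passed, and without wild type array 2, 562 did, of which 438 are among the 441 genes low in wild type array 1. Without Sox17+/- array 1, 0 passed (498 at an unadjusted p under 0.05), and without Sox17+/- array 2, 0 passed (1058). Over the 16 alternatives, Cited1 ranged from -3.42 to -3.19 and passed in 12, and Shh ranged from -3.37 to -1.99 and passed in 10. With 2 samples against 2, an exact two-sided permutation test of a single gene cannot go below p = 0.333.

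Sox17 itself was lower in both Sox17+/- arrays, which checks the labels. It read 9.61 and 9.33 in wild type and 7.73 and 7.98 in Sox17+/-, a difference of -1.62 (SE 0.17), or 32.6% of the wild type signal. The groups did not overlap, with 1.35 between the nearest arrays, but the limma adjusted p was 0.228. A second Sox17 probe set, of a type that can cross-hybridize, differed by -1.76. The labels do not tell whether either probe set lies within what the allele alters. In the fit of all 8 gallbladder arrays, where 4 groups share 1 estimate of the spread, the ICR difference of Sox17 was the same -1.62 with a limma adjusted p of 0.0200.

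Because so few genes passed, the genes were also ordered by how far apart the genotypes stood in both replicates. A gene counts as separated where both Sox17+/- arrays lie above both wild type arrays, or both below, and its gap is the distance between the nearest arrays of the 2 genotypes. Of 14606 tested genes, 5653 (38.7%) were separated at any gap, 2542 higher (17.4%) and 3111 lower (21.3%). A gap of at least 1 log2 unit was reached by 47 genes, 0.322% of those tested: 25 higher (0.171%) and 22 lower (0.151%). These gaps describe 4 arrays and are no test, and apart from Cited1 and Shh none of the 47 passed, with limma adjusted p from 0.228 to 0.666. The split of the 47 moved with the scaling: as deposited there were 15 higher and 32 lower, 36 of them shared with the main set, and with centring 29 higher and 18 lower, 43 shared. At the threshold, Slc27a2 with a gap of 1.00 and Igfbp2 with a gap of -1.01 were inside, and Krt8, Cfi and Cdh16, each with a gap of 0.99, were outside.

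**Figure D2:**
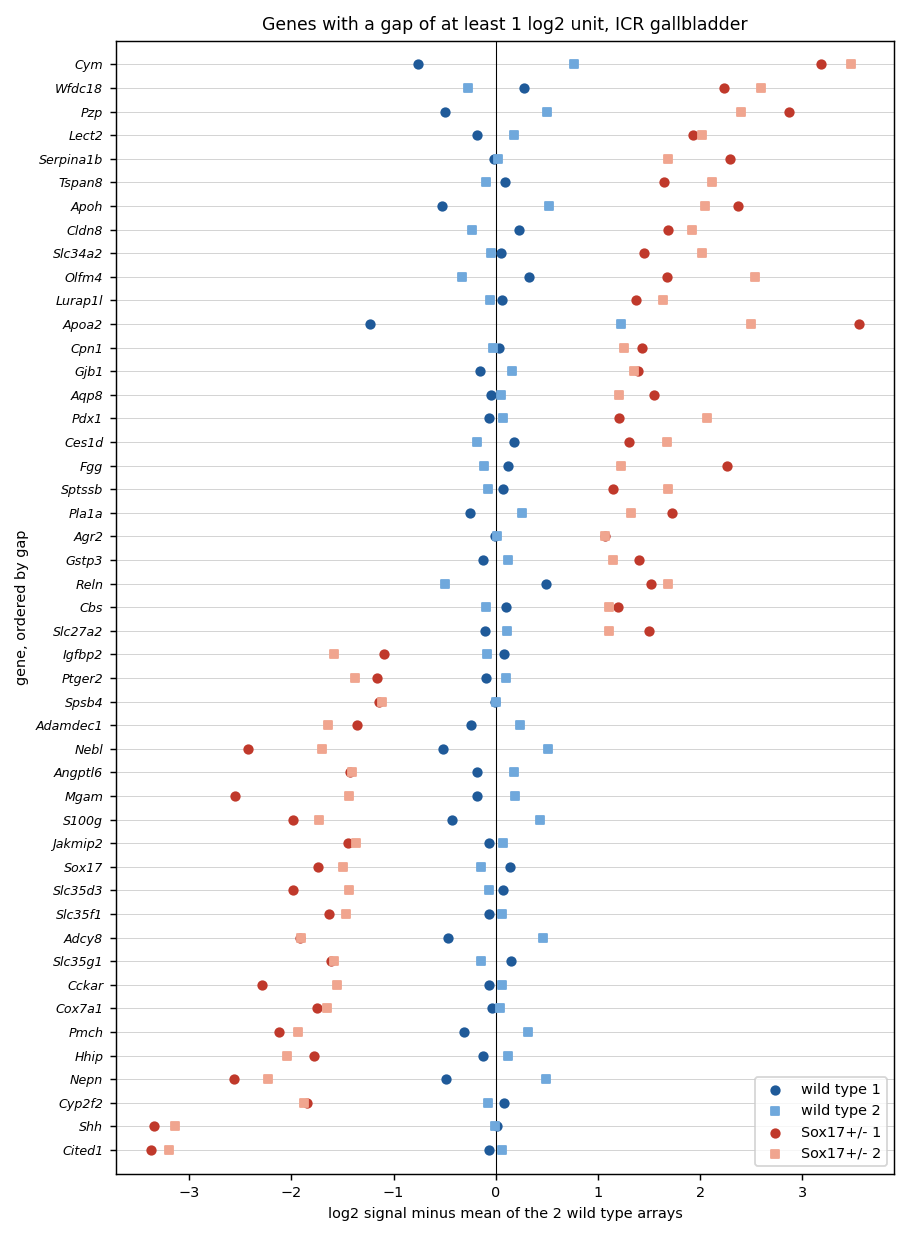
The 47 genes with a gap of at least 1 log2 unit between the genotypes in ICR gallbladder. Each point is 1 array, as log2 signal minus the mean of both wild type arrays. Cited1 and Shh, at the bottom, stand 3.13 apart, and Cym, at the top, 2.42.

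Besides Cited1, Shh and Sox17, the genes with the widest gaps on the lower side are given in turn, with no theme tested over them. Hhip, the Hedgehog-interacting protein that binds and restrains Hedgehog ligands, read 8.30 and 8.54 in wild type and 6.64 and 6.38 in Sox17+/-, a difference of -1.91 (SE 0.19, limma adjusted p 0.228). All 4 probe sets of Hhip were lower, by 1.55 to 1.91 on the log2 scale. Cyp2f2, a cytochrome P450, read 6.73 and 6.57 in wild type and 4.80 and 4.77 in Sox17+/-, a difference of -1.86 (SE 0.16). Nepn, a small leucine-rich repeat protein of the early gut endoderm, read 6.77 and 7.75 against 4.70 and 5.03. Its wild type arrays were 0.98 apart, and the gap to the Sox17+/- arrays was 1.74. Pmch, the precursor of melanin-concentrating hormone, read 6.20 and 6.82 in wild type and 4.39 and 4.57 in Sox17+/-. Cckar, the cholecystokinin receptor through which the gallbladder is made to contract, read 8.48 and 8.60 in wild type and 6.25 and 6.99 in Sox17+/-, a difference of -1.92 (SE 0.28, limma adjusted p 0.375).

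Further down the same side stood Cox7a1, a muscle-type subunit of cytochrome c oxidase, at 7.74 and 7.82 in wild type against 6.03 and 6.12 in Sox17+/-. Adcy8, an adenylyl cyclase, read 5.50 and 6.44 against 4.05 and 4.06. The solute carriers of family 35 Slc35g1, Slc35f1 and Slc35d3, differed by -1.60, -1.55 and -1.71. S100g, the calcium-binding protein calbindin D9k, read 6.64 and 7.50 against 5.09 and 5.34, and Jakmip2 read 5.68 and 5.82 against 4.30 and 4.38. Igfbp2, a secreted binding protein of insulin-like growth factors, read 10.27 and 10.11 against 9.10 and 8.61. The remaining members, named after their values were seen, were Mgam, Angptl6, Nebl, Adamdec1, Spsb4 and Ptger2, with differences from -2.06 in Nebl to -1.13 in Spsb4. Mgam, the intestinal maltase-glucoamylase, was uneven within Sox17+/-, at 4.79 and 5.91, against 7.16 and 7.53 in wild type. Nebl was uneven in both groups, at 6.93 and 7.95 in wild type against 5.02 and 5.74 in Sox17+/-. Wild type array 2, in which heart and slow muscle genes were high, lay 1.02 above all other arrays in Nebl. Spsb4 was even in both groups, at 7.26 and 7.27 against 6.12 and 6.15.

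The gene with the widest gap on the higher side was Cym, and epithelial genes among the next are given with it. Cym, the aspartic protease chymosin of the newborn stomach, read 6.16 and 7.69 in wild type and 10.10 and 10.40 in Sox17+/-, a difference of 3.33 (SE 0.50, limma adjusted p 0.378). Its wild type arrays were 1.53 apart, and wild type array 2 was the nearer to Sox17+/-. Cym is among the 441 genes in which wild type array 1 lay more than 1 below all others. Wfdc18, a small secreted protein with a whey acidic protein domain, read 5.98 and 5.43 in wild type and 7.93 and 8.30 in Sox17+/-, a difference of 2.41 (SE 0.26). Tspan8, a tetraspanin of gut and duct epithelium, read 8.69 and 8.51 against 10.25 and 10.72, and its 4 other probe sets were higher by 0.57 to 1.73. Cldn8, a tight junction claudin, read 7.15 and 6.70 against 8.61 and 8.85. Slc34a2, a sodium-phosphate cotransporter, read 6.29 and 6.20 against 7.70 and 8.26. Olfm4, a secreted glycoprotein of intestinal crypts, read 9.08 and 8.43 against 10.43 and 11.29. In each of these 6 genes both Sox17+/- arrays were above both wild type arrays by more than the distance between the wild type arrays. The gene lists used here and below were chosen with earlier results of these data known. Their shares and medians are therefore a description and no test. The stomach and intestine list, which holds Cym, did not stand higher as a group, with a median of 0.13. Of its 9 tested genes, 3 (33.3%) were separated higher and 2 (22.2%) lower, against 17.4% and 21.3% of all tested genes. Its trefoil peptides Tff3 and Tff2 differed by 0.83 and 0.49, and Tff1 by -0.35.

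Pdx1, a transcription factor of the pancreas and duodenum, read 4.24 and 4.38 in wild type and 5.52 and 6.38 in Sox17+/-. Its other probe set read 4.69, 4.85, 4.63 and 5.09 in the same order, a difference of 0.09, so the probe sets of this gene disagree. Lurap1l read 8.22 and 8.10 against 9.53 and 9.79. Agr2, a disulfide isomerase of mucus-secreting epithelium, was dim but even, at 4.84 and 4.86 against 5.92 and 5.92. Reln, the extracellular glycoprotein reelin, and Sptssb, a subunit of serine palmitoyltransferase, differed by 1.60 and 1.42. Agr2, Reln, Sptssb and the genes Ces1d, Pla1a, Gstp3, Cbs and Slc27a2, which differed by 1.15 to 1.52, were named after their values were seen.

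Other genes with a wide gap on the higher side encode plasma and liver proteins. Pzp, a broad protease inhibitor of plasma, read 6.42 and 7.42 in wild type and 9.79 and 9.32 in Sox17+/-, a difference of 2.64 (SE 0.37, limma adjusted p 0.349). Lect2, a secreted hepatocyte protein, read 5.51 and 5.87 against 7.63 and 7.71. Serpina1b, an alpha-1-antitrypsin, read 9.91 and 9.95 against 12.22 and 11.62, on a probe set of a type that can cross-hybridize. Apoh, beta-2-glycoprotein I, read 8.44 and 9.49 against 11.34 and 11.01. Apoa2, an apolipoprotein of high-density lipoprotein, read 7.63 and 10.09 against 12.41 and 11.35, and its wild type arrays were farther apart (2.45) than the gap (1.26). Apoh and Apoa2 are also among the 441 genes low in wild type array 1. Fgg, the fibrinogen gamma chain, read 9.62 and 9.39 against 11.76 and 10.73. Cpn1, the catalytic subunit of plasma carboxypeptidase N, Gjb1, the gap junction protein connexin 32, and Aqp8, a water channel, differed by 1.34, 1.37 and 1.38.

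The hepatocyte list as a whole was higher in ICR Sox17+/-. Of its 22 tested genes, 21 were above 0 and 20 were separated higher, where 17.4% of all tested genes were. The median difference was 1.31 against -0.02 for all tested genes, 18 had an unadjusted p under 0.05, and 0 passed. Afp at 13.59, 12.99, 13.45 and 13.53 and Ambp at 11.62, 11.49, 11.38 and 11.54, in the order used above, were the 2 that overlapped. The mean level of the list was 9.63 and 9.21 in wild type and 11.07 and 10.39 in Sox17+/-, so the replicates of Sox17+/- also differed from each other. The median was 1.77 without wild type array 1, 0.79 without wild type array 2, 0.85 without Sox17+/- array 1 and 1.62 without Sox17+/- array 2. Wild type array 2 lay more than 1 below all others in 7 of the 22, and Sox17+/- array 1 more than 1 above in 7. Of the 25 genes with a wide gap on the higher side, 4 (Serpina1b, Apoh, Apoa2 and Fgg) are in this list. The part that liver RNA has in these differences was not tested.

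Lists of other cell types had smaller medians in ICR. The erythroid list had a median of 0.76, with 15 of 15 tested genes above 0. Of these, 3 (20%) were separated higher, where 17.4% of all tested genes were. The erythroid median was 0.17 without wild type array 2 and 1.43 without wild type array 1. In B6 it was 0.79, with 10 of 15 separated higher, where 20.3% of all tested genes were. Skeletal muscle genes had an ICR median of 0.21, with 7 of 14 (50%) separated higher. Among them was Tnnc2, fast troponin C, at 4.95 and 5.20 in wild type against 6.57 and 5.97. In B6 the skeletal muscle median was 1.75, and the mean level of the list was 8.15 in Sox17+/- array 3 and 6.15 in array 4, against 5.48 and 5.49 in wild type. Leukocyte genes had a median of 0.03, endothelial genes 0.11, neural genes 0.09 and mesothelial genes 0.32, and in each of these lists 0 passed. With 1 array left out, the leukocyte median ran from -0.26 to 0.31 and the mesothelial one from -0.005 to 0.56. The endothelial median ran from -0.02 to 0.15 and the neural one from -0.11 to 0.28. Cell cycle genes had a median of 0.07, with 1 of 21 (4.76%) separated higher and 2 (9.52%) lower, against 17.4% and 21.3% of all tested genes.

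The biliary epithelium list did not shift as a group. Its 21 tested genes had a median of 0.00, with 7 separated higher (33.3%) and 4 lower (19.05%) against 17.4% and 21.3% of all tested genes. Krt19, a duct keratin, read 10.40 and 10.25 in wild type and 10.14 and 10.52 in Sox17+/-, and Cdh1, E-cadherin, read 11.34, 11.64, 10.58 and 11.48. Tspan8 had the widest gap in the list, and Cdh6, a cadherin, read 6.75 and 6.86 against 7.42 and 7.91. The 4 separated lower were Muc1, Cldn7, Spint1 and Cd24a, named after their values were seen, with differences of -0.41 to -0.15. Krt8, another keratin of simple epithelium, differed by 2.30, but wild type array 1 read 8.28 against 10.86 in wild type array 2, and the Sox17+/- arrays read 11.85 and 11.89. Its 2 other probe sets differed by 0.73 and 0.60, with wild type array 1 at 10.74 and 10.73, so the size of the Krt8 difference is that of 1 probe set. Among duct transport genes, 4 of 13 were separated higher and 3 lower. Kcnn4, a calcium-activated potassium channel, read 8.11 and 7.59 against 8.91 and 8.89, and Abcb4, the phospholipid exporter of bile, read 6.33 and 6.28 against 7.48 and 6.995.

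**Figure D3:**
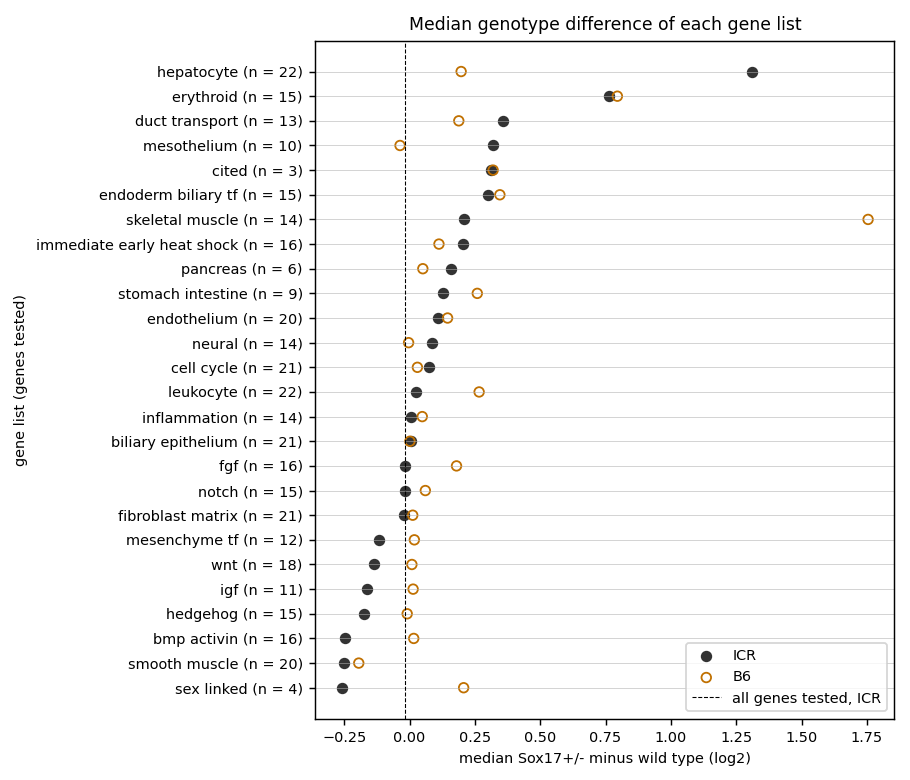
Median difference, Sox17+/- minus wild type in log2, of each gene list in ICR (filled) and B6 (open), with the number of tested genes. The dashed line is the ICR median of all tested genes, -0.02. The hepatocyte list is the highest in ICR at 1.31 and 0.20 in B6, and skeletal muscle is the highest in B6.

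Transcription factors of the endoderm and bile ducts were more often higher than lower. Of 15 tested, 8 were separated higher and 1 lower, with a median of 0.30, where 17.4% of all tested genes were separated higher and 21.3% lower, and 0 passed. Sox9, a SOX factor of bile duct cells, read 7.27 and 7.20 in wild type and 8.15 and 8.45 in Sox17+/-, a difference of 1.07 (SE 0.17, limma adjusted p 0.423). Foxa3, a forkhead factor of gut and liver, read 7.09 and 6.77 against 7.77 and 7.89. Hhex, a homeobox factor of the ventral foregut, read 9.67 and 9.66 against 10.18 and 10.47, and Foxa1 read 4.81 and 5.17 against 5.72 and 6.18, both named after their values were seen. Onecut1, also called HNF6, was the member separated lower, at 9.14 and 9.17 against 8.04 and 8.32. Its difference was -0.97 (SE 0.16, limma adjusted p 0.423), and its other probe set differed by -0.93. In B6, 9 of the 15 listed factors were separated higher and 0 lower, with a median of 0.35. Of all tested genes in B6, 20.3% were separated higher and 20.5% lower. The B6 difference of Onecut1 was 0.35, and its difference between strains in the fit of 8 arrays was -1.31 (95% interval -2.38 to -0.24, limma adjusted p 0.848).

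Along the Hedgehog pathway in ICR, Shh, Ihh and the known target genes were lower, and most signal transducers differed by less than 0.2 log2 units. Of 15 tested genes, 9 (60%) were separated lower and 2 higher, where 21.3% and 17.4% of all tested genes were, and Shh alone passed. This list was chosen with earlier results of these data known, so its shares describe it and are no independent support. Among ligands, Ihh, Indian hedgehog, was dim, at 6.67 and 6.01 in wild type and 5.32 and 5.17 in Sox17+/-, and Dhh, Desert hedgehog, read 6.42 and 6.09 against 6.84 and 6.47. Among targets, Gli1 read 7.87 and 8.15 against 7.09 and 7.24, a difference of -0.85 (SE 0.18, limma adjusted p 0.531), beside Hhip above. Ptch1, the receptor and also a target, read 11.22 and 11.43 against 10.25 and 10.76, a difference of -0.82 (limma adjusted p 0.614), and was named after its values were seen. In B6 the differences were smaller for Gli1 (-0.10), Ptch1 (-0.17) and Ihh (-0.54), and the list had a median of -0.01. Of its 15 genes, 3 were separated higher in B6 and 4 lower, near the 20.3% and 20.5% of all tested genes there. The ICR minus B6 difference in the fit of 8 arrays was -0.75 for Gli1 (95% interval -1.27 to -0.23) and -0.65 for Ptch1, both with a limma adjusted p of 0.848. Smo, Gli2, Gli3, Sufu, Gas1, Boc and Disp1 differed by -0.18 to 0.02, Cdon, a co-receptor, by 0.24, and Hhat, the acyltransferase of the ligands, by -0.50; the members beyond Shh, Hhip, Gli1 and Ihh are given to complete the list.

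**Figure D4:**
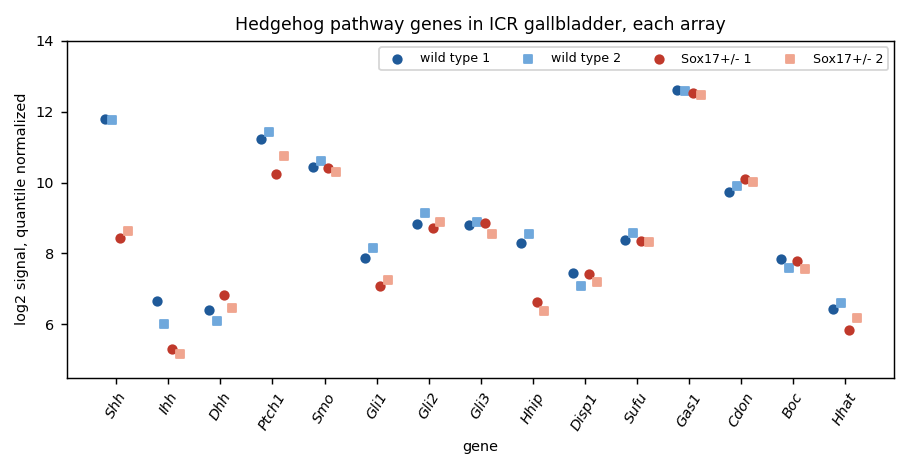
Quantile normalized log2 signal of the 15 tested Hedgehog pathway genes in each of the 4 ICR gallbladder arrays. Both Sox17+/- arrays lie below both wild type arrays by 3.13 in Shh and by 1.66 in Hhip, and the signal transducers overlap or nearly so.

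Mesenchyme transcription factors, smooth muscle genes and BMP, Wnt and insulin-like growth factor genes were more often separated lower than higher. Of all tested genes, 21.3% were separated lower and 17.4% higher. Foxf1, a forkhead factor of gut mesenchyme that responds to Hedgehog signals, read 11.01 and 11.05 in wild type and 10.15 and 10.15 in Sox17+/-, a difference of -0.88 (SE 0.11, limma adjusted p 0.297). Of 12 mesenchyme transcription factors, 6 (50%) were separated lower and 1 higher. Of 20 smooth muscle genes, 11 (55%) were separated lower and 3 higher, with a median of -0.25. Myh11, the smooth muscle myosin heavy chain, read 10.15 and 10.10 against 9.29 and 9.69, and Myocd, the co-activator myocardin, read 9.68 and 9.20 against 8.88 and 8.43. Of 16 BMP and activin genes, 10 (62.5%) were separated lower and 1 higher. Bmp2, a secreted ligand, read 8.75 and 8.95 against 7.64 and 8.24, and Bmp5, another ligand, read 8.01 and 8.24 against 7.43 and 7.58. Of 18 Wnt genes, 6 (33.3%) were separated lower and 4 (22.2%) higher, nearer to the shares of all genes. Wnt5a, a ligand of the mesenchyme, read 9.87 and 10.03 against 9.06 and 9.47, and Dkk2, a Wnt modulator, read 10.40 and 10.50 against 9.77 and 9.86. Of 11 insulin-like growth factor genes, 7 (63.6%) were separated lower, Igfbp2 by the widest gap, and 1 higher. None of the genes in these lists passed. The medians of these 5 lists were -0.25 to -0.12, against -0.02 for all tested genes. As deposited they were -0.38 to -0.27, against -0.17 for all tested genes. With each array centred on its median they were -0.19 to -0.08. With 1 array left out, the Wnt median ran from -0.27 to 0.02 and the mesenchyme one from -0.22 to -0.05. The insulin-like growth factor median ran from -0.15 to -0.06, the smooth muscle one from -0.26 to -0.18 and the BMP and activin one from -0.28 to -0.17. In B6 the medians of these lists were -0.19 for smooth muscle and 0.01 to 0.02 for the other 4. Of 21 fibroblast and matrix genes in ICR, 6 (28.6%) were separated lower and 2 (9.52%) higher. Their median was -0.02, that of all tested genes. Of 16 FGF genes, 3 were separated lower and 3 higher, and of 15 Notch genes, 2 were lower and 3 higher.

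The B6 arrays, which the ICR comparison did not use, gave the same direction for all 22 genes with a wide gap on the lower side. All of them (100%) were separated lower in B6 too, where 28.4% of all genes separated lower in ICR were. Cited1 read 10.71 and 10.66 in B6 wild type and 7.42 and 8.09 in B6 Sox17+/-, and Shh read 12.27 and 12.28 against 9.13 and 9.52. Sox17 read 9.30 and 9.05 against 8.03 and 7.91. The median of the 22 was -1.78 in ICR and -1.42 in B6. These genes were chosen by their gap in ICR, so a smaller median in B6 can come from that choice alone. In B6, 20.3% of all tested genes were separated higher and 20.5% lower. Mgam differed more in B6 (-2.85) than in ICR (-1.99), and Nebl less (-0.51 against -2.06).

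On the higher side, 16 of the 25 genes (64%) were separated higher in B6, where 27.3% of all genes separated higher in ICR were, and the other 9 overlapped there. Over both directions this makes 38 of 47 (80.9%) against 27.9% of all genes separated in ICR. A gap of at least 1 in the same direction in both strains was reached by 20 genes, 42.6% of the 47 in ICR and 60.6% of the 33 in B6 (0.11% of tested genes higher and 0.116% lower). The median was 1.64 in ICR and 0.41 in B6. Cym (2.43 in B6), Wfdc18 (1.905), Lurap1l (1.62), Tspan8 (1.53), Olfm4 (1.502), Cldn8 (1.47), Pdx1 (1.25) and Slc34a2 (1.23) were also separated higher in B6. Of these 8, Lurap1l alone differed by more in B6 than in ICR. As all were chosen by their gap in ICR, smaller B6 differences can come from that choice and say nothing about the strains. Others of the 16 were separated by less in B6. The B6 gap was 0.03 in Serpina1b, 0.11 in Slc27a2, 0.13 in Cbs and 0.21 in Lect2. It was 0.25 to 0.89 in Agr2, Sptssb, Ces1d and Reln. The 9 that overlapped were Pzp, Apoh, Apoa2, Cpn1, Gjb1, Aqp8, Fgg, Pla1a and Gstp3. Apoh read 11.38 and 10.26 in B6 wild type and 10.86 and 10.74 in B6 Sox17+/-, and Apoa2 read 11.94 and 11.39 against 11.80 and 11.98. When all 8 gallbladder arrays were put on 1 scale, the hepatocyte list had a mean level of 9.60 and 9.17 in ICR wild type, 11.04 and 10.36 in ICR Sox17+/-, and 10.00 to 10.61 in the 4 B6 arrays. The 2 ICR wild type arrays were thus the lowest of the 8. As deposited, 9 of 15 wide-gap genes on the higher side were separated the same way in B6, and with probe sets averaged, 9 of 16.

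**Figure D5:**
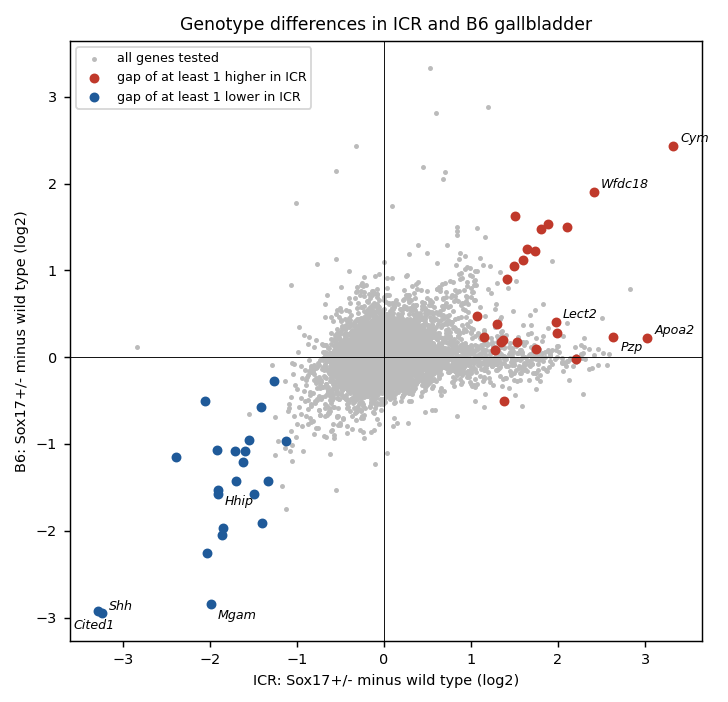
Sox17+/- minus wild type in log2 for each tested gene, ICR on the x axis and B6 on the y axis. Genes with a gap of at least 1 in ICR are coloured; all 22 blue genes are below 0 in B6, and the red genes fall into some near the diagonal and some near 0 in B6, such as Pzp (0.24) and Apoa2 (0.22).

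No gene passed the test of the difference between strains, limma's interaction over the 8 gallbladder arrays, at an adjusted p of 0.05, and 791 (5.42%) had an unadjusted p under 0.05. Lect2 had an ICR minus B6 difference of 1.63 (95% interval 1.05 to 2.21) and Serpina1b one of 1.71 (1.02 to 2.41), both with a limma adjusted p of 0.848. For Shh the difference between strains was -0.30 (95% interval -0.77 to 0.16) and for Cited1 -0.36 (-1.04 to 0.31). Without ICR wild type array 2, 500 genes passed the interaction, 418 of them among the 441 genes low in wild type array 1. Without ICR wild type array 1, 1 gene passed, and without B6 Sox17+/- array 4, 2 did. In the same 8-array fit, 21 genes (0.144%) passed for the ICR genotype effect and 5 (0.0342%) for the B6 one. Of the 21, 19 are among the 47 with a wide gap. Lect2, Serpina1b, Wfdc18, Tspan8, Lurap1l, Slc34a2, Cpn1, Gjb1 and Cbs were the 9 higher, and Cited1, Shh, Sox17, Hhip, Cyp2f2, Cox7a1, Slc35g1, Jakmip2, Spsb4 and Ptger2 were among the 12 lower.

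SOX proteins bind a short DNA core, and promoters of the wide-gap genes were searched for it as a description. The letters ACAAT, on either strand (ATTGT on the other), were looked for from 250 bases before to 50 bases after each gene start in RefSeq's promoters on GRCm38.p6. They were found in 3201 of 14872 promoters (21.5%) of the tested genes. Of 22 promoters of 16 genes on the lower side, 6 (27.3%) held a match, those of Mgam, Nebl, Nepn, Pmch, Ptger2 and S100g. Of 26 promoters of 22 genes on the higher side, 6 (23.1%) did, from Agr2, Gjb1, Lurap1l and Wfdc18. Shares this close to the background say nothing particular about either group. The 3 promoters of Cited1 held 0 matches, and the promoter of Shh, the other gene that passed, was not analysed here. Promoters are printed 5′ to 3′ on the gene's strand, with matches in capitals. They are Cited1, which passed, at its most upstream start (chrX:102252132-102252431, strand minus), Nepn (chr10:52391358-52391657, strand plus), Pmch (chr10:88090822-88091121, strand plus) and Ptger2 (chr14:44987861-44988160, strand plus) from the lower side, and Wfdc18 (chr11:83708754-83709053, strand plus), which has 3 matches, from the higher side.
Cited1: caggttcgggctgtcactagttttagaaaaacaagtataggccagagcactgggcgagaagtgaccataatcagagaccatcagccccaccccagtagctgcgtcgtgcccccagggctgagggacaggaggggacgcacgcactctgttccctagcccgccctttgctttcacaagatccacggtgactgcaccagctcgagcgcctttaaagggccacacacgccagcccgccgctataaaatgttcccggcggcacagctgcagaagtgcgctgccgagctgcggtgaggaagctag
Nepn: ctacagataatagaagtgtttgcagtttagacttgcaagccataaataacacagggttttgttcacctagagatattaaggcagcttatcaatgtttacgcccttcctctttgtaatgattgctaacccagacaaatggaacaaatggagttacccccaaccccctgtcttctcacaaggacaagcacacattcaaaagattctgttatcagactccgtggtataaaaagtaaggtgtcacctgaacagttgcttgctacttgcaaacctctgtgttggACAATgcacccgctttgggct
Pmch: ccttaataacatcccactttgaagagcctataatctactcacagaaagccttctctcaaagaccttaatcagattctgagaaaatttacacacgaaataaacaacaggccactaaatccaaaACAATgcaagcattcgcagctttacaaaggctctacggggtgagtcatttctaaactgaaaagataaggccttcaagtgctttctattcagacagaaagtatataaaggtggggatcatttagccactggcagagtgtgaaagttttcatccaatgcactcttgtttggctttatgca
Ptger2: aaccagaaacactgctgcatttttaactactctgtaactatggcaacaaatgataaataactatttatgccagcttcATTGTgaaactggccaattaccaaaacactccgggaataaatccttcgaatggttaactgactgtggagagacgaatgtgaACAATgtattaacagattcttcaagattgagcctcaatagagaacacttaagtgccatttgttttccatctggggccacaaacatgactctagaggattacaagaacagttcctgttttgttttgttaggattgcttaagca
Wfdc18: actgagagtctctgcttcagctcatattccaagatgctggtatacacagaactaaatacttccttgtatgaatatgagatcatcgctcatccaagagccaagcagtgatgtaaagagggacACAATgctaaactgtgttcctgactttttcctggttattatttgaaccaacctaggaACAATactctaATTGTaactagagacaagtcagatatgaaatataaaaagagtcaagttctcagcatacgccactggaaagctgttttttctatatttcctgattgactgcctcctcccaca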

How the data were processed

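Signals of 4 ICR gallbladder samples were taken from the deposited values, which are log2 signals per probe set (2.20 to 15.15), per the file headers and the values; the normalization the authors used is not given in the sources used here. Total RNA was isolated with Trizol and biotin-labelled, per the labels' protocols. The label fields for stage and genotype are swapped, and their values were used. Deposited medians ran from 5.57 to 6.07, a spread over 0.2, so the 4 arrays were quantile normalized.

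Of 45101 probe sets, 64 controls were left out, 34945 have 1 gene in GEO's platform annotation, 932 several and 9160 none. Symbols were updated through Entrez identifiers for 34741 and kept for 204. Of a gene's probe sets the one of highest mean was used (18193 genes), an _x_at type only where no other was present. Those under the 30th percentile of mean signal (4.49) were left out, 3587 in all. Of 5131 bright probe sets with no listed gene, 0 passed and 342 had an unadjusted p under 0.05.

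Genotypes were compared with limma 3.58.1 (R 4.3.3), empirical Bayes with a mean-variance trend, 2 residual degrees of freedom, and Benjamini-Hochberg adjustment over 14606 genes at 0.05. Intervals are 95%. B6 differences come from the 4 B6 gallbladder arrays normalized alone and read on the same probe sets; the strain test uses all 8 gallbladder arrays. The steps were tested on simulated data in which no array stood apart, so that test does not cover the differences between arrays seen here. The comparison and the 27 gene lists (442 entries, 384 tested) were chosen with earlier results of these data known. Named genes are Sox17, those that passed, up to 15 per direction by gap, up to 4 per list by p, and up to 6 per array; predicted gene models were skipped, and others are marked as named after their values were seen. Alternatives were the scaling, the filter, the use of probe sets, the variance model, the arrays fitted, the replicate number as a block, and leaving out each array. The number of arrays limits the precision.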

Additional observations from a re-analysis of the deposited data

How the results depend on the processing

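Of the ICR genotype calls (2 genes), the count was 2 with quantile normalization over all 10 arrays, with no filter or a filter at the 50th percentile, with every probe set on its own, with no trend and with robust empirical Bayes. It was 438 as deposited, 0 with centring, 1 with probe sets averaged (Cited1), 21 with 8 arrays in the fit and 1 with 10 (Cited1). Leaving out 1 array gave 0 to 562. With the replicate number as a block, 0 passed (1918 at an unadjusted p under 0.05), with limma adjusted p 0.0521 for both Cited1 and Shh; the labels do not say that the numbers pair samples, and replicate differences correlated at 0.38 across genes. With centring both had 0.0545. The count with a gap of at least 1 (47) was 34 to 57 under alternatives of scaling, filter and probe sets, and 86 to 541 with 1 array left out, where a gap is measured to a lone array. Of genes higher by this measure, 9 of 15 were separated alike in B6 as deposited and 9 of 16 with probe sets averaged, against 16 of 25. Without wild type array 1 it was 62 of 101, and without wild type array 2, 113 of 514. Without Sox17+/- array 1 it was 40 of 56, and without Sox17+/- array 2, 35 of 78. For genes lower these were 34 of 44, 26 of 27, 28 of 30 and 47 of 63, against 22 of 22. The strain test called 0 in each alternative of processing and 0 to 500 with 1 array left out. The direction of single genes reversed for Pyy as deposited (-0.074) and Ret with probe sets averaged (-0.12). Ranges with 1 array left out crossed 0 for Bub1 (-0.12 to 5.24), Chfr (-0.20 to 4.35), Myl2 (-5.99 to 0.23), Myh7 (-2.29 to 0.21), Lcn2 (-0.40 to 2.58), Ifitm6 (-0.38 to 2.44), Xist (-0.59 to 0.093), Uty (-0.44 to 0.22), Ins2 (-0.47 to 0.065), Sema5a (-1.25 to 0.078) and Ckmt1 (-0.46 to 1.08). A lone array is assumed to vary like the other group; for the other changes the cause was not tested.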
